A study of Mus musculus with 2 samples.

Results

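Ceramide and oxysterol transfer proteins carry single lipids between membranes, and 9 of their genes were examined here after knockdown of the splicing regulator Ptbp1 in N2A mouse neuroblastoma cells. The genes were Col4a3bp, which encodes the ceramide transfer protein and whose newer symbol is Cert1, and the oxysterol-binding protein genes Osbp, Osbpl1a, Osbpl2, Osbpl3, Osbpl6, Osbpl8, Osbpl9 and Osbpl11. They were 9 of 22005 genes measured in both libraries, and they were chosen by name with earlier results of these data known, the splicing values below among them, so those values describe the genes and support nothing further. The study sequenced 1 poly(A) RNA library from cells transfected with a control short hairpin (control) and 1 from cells transfected with a hairpin against Ptbp1 (ptbp1kd), both harvested after 3 days in culture. Both groups are the same cell line transfected with Lipofectamine, and neither the efficiency of transfection per cell nor a second hairpin is given. With 1 library per condition there is no replicate check and no test between conditions, and every interval below covers counting error only.

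Splicing was measured as PSI, the percent of a gene's transcripts that include an exon, which SpliceTrap estimates for a trio made of an exon and its 2 neighbours. The 9 genes hold 227 trios, each trio being 1 middle exon with 1 choice of neighbours, of 228333 in the whole database. Of these, 192 passed a minimum of 20 reads in both libraries, and they cover 152 distinct middle exons of 8 genes. The 35 trios below this minimum were all 32 of Osbpl3, which had at most 4 reads in either library, and 3 of Osbpl9. The Osbpl9 trios below the minimum had 11, 2 and 26 reads in control and 17, 0 and 18 in ptbp1kd, and the passing trios with the fewest reads were 2 of Osbpl1a, with 68 and 62 reads in control and 30 and 33 in ptbp1kd. Of the 151 cassette and constitutive exons that passed, 151 were preceded by AG and 150 were followed by GT in the mm9 genome, the letters of the usual splice sites.

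The ceramide transfer protein takes ceramide from the endoplasmic reticulum to the trans-Golgi, where it is made into sphingomyelin. A pleckstrin homology domain binds phosphatidylinositol 4-phosphate on the Golgi, a short FFAT motif binds the VAP proteins of the endoplasmic reticulum, and a START domain holds the ceramide. Oxysterol-binding protein uses the same anchors at both ends and exchanges sterol for phosphatidylinositol 4-phosphate, and its relatives carry sterols or phosphatidylserine at other membrane contacts. Ptbp1 binds pyrimidine-rich RNA, and its binding in the intron before an exon is widely linked to skipping of that exon.

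Inclusion changed most, among exons with over 100 junction reads in each library, at a 78-nt exon of Col4a3bp, and smaller or more thinly covered changes were seen in Osbpl8, Osbpl9 and Osbpl6. The windows below are shown because they hold the exons on which the splicing results turn, each with 120 bases of the intron before it and 20 bases of the intron after it. They are the mm9 (NCBIM37) reference sequence on the transcribed strand, 5′ to 3′, with the exon in capitals. The first is chr13:97386829-97387046 on the plus strand, the second chr10:110661608-110661784 on the plus strand, and the 2 from Osbpl9 are, in the order printed, chr4:108764246-108764424 and chr4:108780466-108780674 on the minus strand.
Col4a3bp 78-nt exon: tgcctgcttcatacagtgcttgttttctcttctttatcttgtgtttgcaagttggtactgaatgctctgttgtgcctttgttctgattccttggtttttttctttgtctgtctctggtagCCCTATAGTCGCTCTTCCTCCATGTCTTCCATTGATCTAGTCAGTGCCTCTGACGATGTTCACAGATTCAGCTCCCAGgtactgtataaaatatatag
Osbpl8 37-nt exon: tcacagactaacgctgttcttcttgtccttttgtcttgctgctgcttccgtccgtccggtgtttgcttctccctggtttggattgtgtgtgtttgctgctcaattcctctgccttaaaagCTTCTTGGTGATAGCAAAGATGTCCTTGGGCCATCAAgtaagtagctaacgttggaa
Osbpl9 39-nt exon: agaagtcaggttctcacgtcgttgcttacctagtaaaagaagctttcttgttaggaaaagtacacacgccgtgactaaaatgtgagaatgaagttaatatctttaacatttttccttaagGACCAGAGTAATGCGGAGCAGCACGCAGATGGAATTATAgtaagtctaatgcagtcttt
Osbpl9 69-nt exon: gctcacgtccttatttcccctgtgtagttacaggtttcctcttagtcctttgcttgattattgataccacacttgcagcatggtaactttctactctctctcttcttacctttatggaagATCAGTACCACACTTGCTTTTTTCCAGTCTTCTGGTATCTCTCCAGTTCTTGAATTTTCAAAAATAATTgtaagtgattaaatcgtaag

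The intron before the Col4a3bp exon is rich in TCTT, a pyrimidine word of the kind that Ptbp1 is known to bind. The tetramer TCTT, read on the transcribed strand with overlaps allowed, occurred 7 times in the 250 bases before the exon, and 2.33% of 3812 cassette exons that were partly included (PSI between 5 and 95) in one library or both had as many or more there. The tetramer CTCT, which can overlap TCTT, occurred 4 times, a number that 19.2% of those exons reached. Before the Osbpl8 exon TCTT occurred 3 times and CTCT 1 time, and 36.6% and 80.8% of the cassette exons had as many. The 39-nt exon of Osbpl9 had the same counts. Pyrimidines made up 60.8% of the 250 bases before the Col4a3bp exon, 60.4% before the Osbpl8 exon and 47.2% before the 39-nt exon. The median over the cassette exons was 53.6%, and 13.2% of them had at least the share of the Col4a3bp exon. The 69-nt exon of Osbpl9 had 3 TCTT, 6 CTCT and 58.8% pyrimidines, and 6.06% of the cassette exons had as many CTCT. A 75-nt exon of Osbpl6, in which no change was detectable (below), had 4 TCTT, 2 CTCT and 60.4% pyrimidines before it. As many TCTT stood before 19.2% of the cassette exons. At least 1 TCTT was present in 85.5% and at least 1 CTCT in 80.8% of the cassette exons' upstream windows. Both words also stand within the Col4a3bp exon itself, 2 times each, and binding was not measured here.

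Most exons of these genes were included in nearly every transcript of both libraries. PSI was above 95 in both libraries for 172 of the 192 trios, and it differed by at most 1 point for 173. The median change, ptbp1kd minus control, was 0.0 points over the 192 trios and 0.0 over the 145628 trios of all genes that passed. PSI was higher in ptbp1kd by 5 points or more in 4 of the 192 trios (2.08%), where 2.73% of all trios were, and lower by as much in 1 (0.521%), where 2.66% of all trios were. In the cassette class, which holds 18 of the 192 trios, 3 were higher and 1 was lower, and the shares over all cassette trios were 16.4% and 15%. Nothing is read from these shares, since the genes were named with these values known, and the account below concerns single exons.

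**Figure D1:**
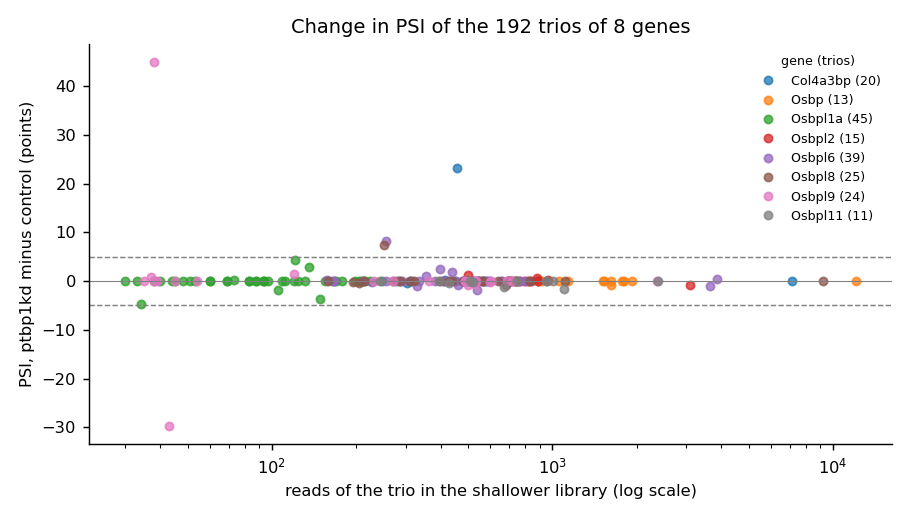
Change in PSI, ptbp1kd minus control in points, of the 192 trios of 8 genes, against the reads of the trio in the shallower library on a log axis; each point is 1 trio and the dashed lines mark 5 points either way. The points beyond the lines are 2 Osbpl9 trios with 38 and 43 reads, 1 Col4a3bp trio with 457, 1 Osbpl6 trio with 256 and 1 Osbpl8 trio with 251, while the other 187 lie between the lines.

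Col4a3bp skipped a 78-nt exon in a sizeable minority of control transcripts, and the share that skipped it was lower after knockdown. The exon lies at chr13:97386949-97387026 on the plus strand, within the coding sequence, and its 78 bases add 26 codons in frame, so that the annotated protein has 624 residues with it and 598 without it. The longer form carries an added serine-rich stretch and is also known as the Goodpasture antigen-binding protein. In control the junctions into and out of the exon had 211 and 168 reads and the junction that skips it had 117. In ptbp1kd they had 229, 206 and 22. The skipping junction was thus low and both inclusion junctions were as high in ptbp1kd, in a library with 0.784 times the junction reads of control. Corrected PSI was 69.0% in control and 92.1% in ptbp1kd, a change of 23.1 points, from 496 and 457 trio reads. From junction reads alone, PSI was 61.8% in control (Wilson 95% interval 56.3 to 67.1) and 90.8% in ptbp1kd (86.5 to 93.9), and the Newcombe 95% interval of the difference ran from 22.1 to 35.3 points. The other 19 trios of Col4a3bp all had a PSI above 95 in both libraries and differed by at most 0.3 points.

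The isoform depths of Cufflinks, a second reading of the same reads and so no separate experiment, went the same way at this exon. Depth is the mean number of reads over each base of an isoform. The RefSeq isoform without the exon had a depth of 103 in control and 16.5 in ptbp1kd, and the one with it 148 and 205. An assembled isoform with the exon had a depth of 49.4 in control. Isoforms with the exon held 65.7% of the depth of Col4a3bp in control and 92.5% in ptbp1kd.

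The 3 cassette exons outside these genes that lay nearest to the Col4a3bp exon, by Euclidean distance over the PSI of both libraries among 3248 exons with at least 100 reads in each, were in Snap91, Slc12a8 and Zfp239. The 84-nt exon of Snap91, which encodes a clathrin adaptor of synapses, had a PSI of 69.7% in control and 92.1% in ptbp1kd. The 147-nt exon of Slc12a8 had 69.0% and 93.6%, and the 180-nt exon of Zfp239 70.5% and 92.5%. With 2 libraries this likeness rests on 2 values per exon.

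Osbpl8 encodes an oxysterol-binding protein relative that is anchored in the endoplasmic reticulum membrane and carries phosphatidylserine at contacts with the plasma membrane. Its 37-nt exon at chr10:110661728-110661764 on the plus strand was already included in most control transcripts and was included in nearly all after knockdown. The junctions into and out of it had 168 and 56 reads in control and 138 and 62 in ptbp1kd, and the skipping junction had 18 and 4. Corrected PSI was 90.9% and 98.4%, a change of 7.5 points, from 336 and 251 trio reads. Junction PSI was 86.2% (79.2 to 91.1) and 96.2% (90.5 to 98.5), and the interval of the difference was 2.53 to 17.4 points. The inclusion junctions were unequal in both libraries, and with the larger of them alone the change was 6.9 points. The same skipping junction is listed with 25 and 10 reads in another trio, and with the largest listed count of each junction PSI was 81.9% (74.8 to 87.5) and 91% (84.3 to 95.1), a change of 9.08 points (0.368 to 17.3).

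The length of this exon is not a multiple of 3, and the annotation places it near the start of the coding sequence. The annotated Osbpl8 transcript with the exon codes for 889 residues from a start codon before it, and the one without it for 847 residues from a start codon in a later exon. The RefSeq isoform with the exon had a depth of 256 in control and 215 in ptbp1kd, and the one without it 31.5 in control and was listed at 0 in ptbp1kd. Isoforms with the exon thus held 89% of the depth of Osbpl8 in control and 100% in ptbp1kd. The other 24 trios of Osbpl8 had a PSI above 95 in both libraries.

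**Figure D2:**
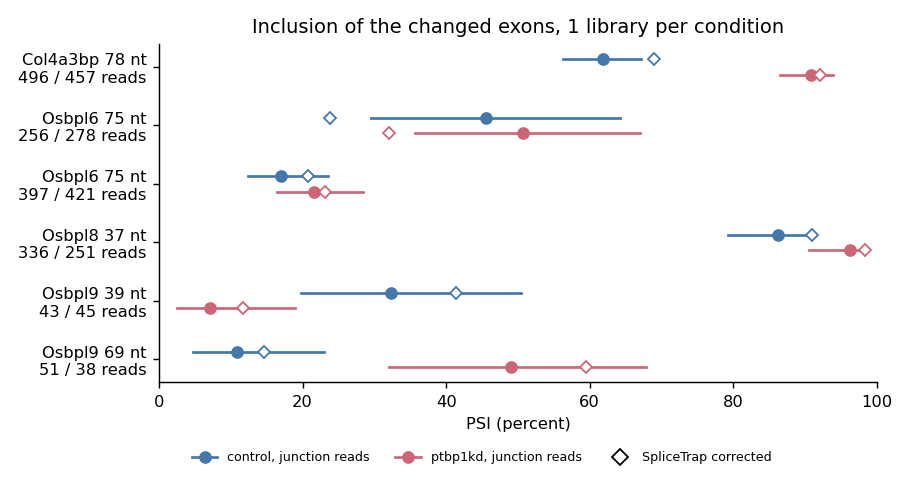
PSI in percent of the exons with a change of 5 points or more in at least 1 trio, with 1 row per passing trio and its reads in control and ptbp1kd; filled points are PSI from junction reads with their Wilson 95% intervals, open diamonds the corrected SpliceTrap PSI, blue control and red ptbp1kd. The intervals of the libraries stand apart for Col4a3bp (56.3 to 67.1 against 86.5 to 93.9) and both Osbpl9 exons, and overlap for Osbpl8 and both Osbpl6 trios.

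Osbpl9, whose product moves phosphatidylserine and sterol between the endoplasmic reticulum and the trans-Golgi, had exons that moved in opposite directions, both on few reads. The 69-nt exon at chr4:108780486-108780554 on the minus strand had a corrected PSI of 14.6% in control and 59.5% in ptbp1kd, a change of 44.9 points. The junctions on its 3′ and 5′ sides had 7 and 3 reads in control and 15 and 10 in ptbp1kd, and the skipping junction had 41 and 13. These rest on 51 and 38 trio reads, and the interval of the difference in junction PSI was 17.5 to 58.1 points. In GENCODE the exon belongs to 2 transcripts and is coding in 0 of them, and no Cufflinks isoform of Osbpl9 in either library contained it. A second trio of the exon, with the other annotated upstream exon, had 11 and 17 reads and so fell below the minimum, at 48.1% and 65.0%.

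The 39-nt exon at chr4:108764266-108764304 on the minus strand had a lower PSI in ptbp1kd. It is coding in 3 of the 6 GENCODE transcripts that hold it, where it adds 13 codons in frame. Its corrected PSI was 41.4% in control and 11.7% in ptbp1kd, a change of -29.7 points, from 43 and 45 trio reads. The junction on its 3′ side had 21 reads in control and 6 in ptbp1kd, the one on its 5′ side 0 in both within this trio, and the skipping junction 22 and 39. The interval of the difference in junction PSI was -43.9 to -8.15 points. In trios of other Osbpl9 exons the same skipping junction is listed with 54 and 66 reads and the 5′ junction with 2 and 0. With these larger counts junction PSI was 17.6% (10.7 to 29.1) in control and 4.35% (1.49 to 12) in ptbp1kd, and the change shrank to -13.2 points (-25.2 to -3.13). Nearly all reads into the exon were on its 3′ side, so a PSI that averages both inclusion junctions describes it poorly. Skipping and the use of another upstream or first exon could not be told apart here. In control an assembled isoform with the exon held 32.9% of the depth of Osbpl9, and no assembled isoform of ptbp1kd contained the exon. The RefSeq isoform with the exon was listed at 0 in both libraries, so these depths give no measure of the change.

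Both of these exons lie in the part of Osbpl9 that few transcripts of these cells covered. Along the RefSeq isoform with the far first exon, the 8 junctions nearest the 5′ end had 20 to 54 reads in control and 15 to 66 in ptbp1kd. The 14 junctions further along had 174 to 440 in control and 134 to 329 in ptbp1kd. Median counts were 40.5 and 287.0 in control and 23.5 and 202.0 in ptbp1kd, so the step between the stretches was present in both libraries. The oxysterol-binding protein relative that Osbpl9 encodes is known as a long form with a pleckstrin homology domain near its amino end and a short form without it. The junction that skips the 69-nt exon was lowest relative to control, with 52 reads in control and 15 in ptbp1kd, and the one that skips the 39-nt exon, with 54 and 66, was the only one of the 22 with more reads in ptbp1kd before scaling, in a library with 0.784 times the junction reads.

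**Figure D3:**
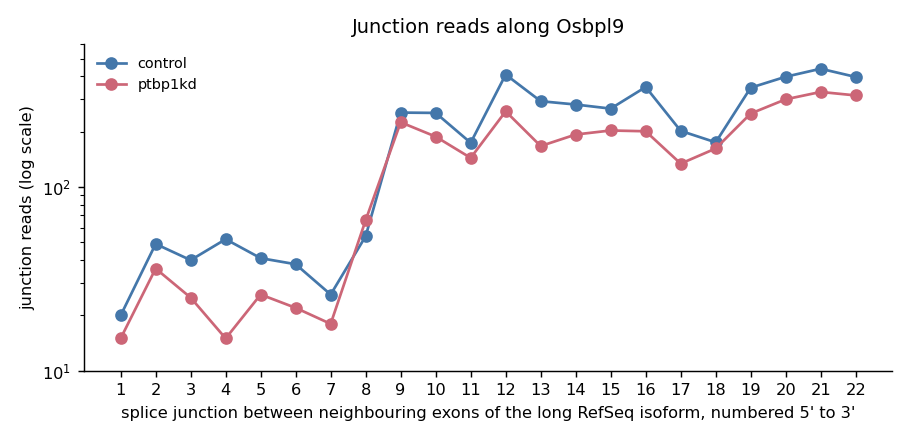
Reads on each of the 22 junctions between neighbouring exons of the long RefSeq isoform of Osbpl9, numbered from the 5′ end, on a log axis, for control (blue) and ptbp1kd (red). Junctions 1 to 8 have 15 to 66 reads and junctions 9 to 22 have 134 to 440, and ptbp1kd lies below control at every junction except the eighth.

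Osbpl6, whose product acts in phosphoinositide and sterol handling and is found in neurons, held a 75-nt exon whose value depended on the trio. The exon lies at chr2:76398243-76398317 on the plus strand, is coding in 4 GENCODE transcripts and adds 25 codons in frame. In the trio with more reads, 397 in control and 421 in ptbp1kd, PSI was 20.7% and 23.1%, from 34 and 25 inclusion and 144 skipping reads in control and 44, 33 and 140 in ptbp1kd. In the other trio, with 256 and 278 reads, PSI was 23.8% and 32.1%, a change of 8.3 points, but the inclusion junction on its 5′ side had 0 and 2 reads. The junction intervals of the difference were -3.77 to 12.8 points and -18.8 to 28 points, and both include 0. Cufflinks put isoforms that contain the exon at 78.1% of the depth that spans it in control and 39.5% in ptbp1kd. Both shares were above the corrected PSI of either trio, and the assembled isoforms differed between the libraries, so no direction is read from them. A difference in inclusion of this exon was not detectable at this depth.

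Other exons of the group were alternatively spliced in these cells and differed by less than 5 points. In Osbpl6 a 240-nt exon was at 3.2% in both libraries, a 24-nt exon at 3.0% and 1.9%, and a 93-nt exon at 95.6% and 93.8%. In Osbpl2, whose product lacks a pleckstrin homology domain and carries cholesterol to the plasma membrane, the outer of a pair of acceptor sites 27 nt apart was used at 84.4% in control and 85.6% in ptbp1kd. A 51-nt exon of Osbpl9 was at 83.9% and 85.3%. In Osbpl11, which encodes a partner of the Osbpl9 product, a 177-nt exon was at 90.8% and 90.5%, with an interval of the difference from -8.87 to 6.78 points, and a 187-nt exon was at 96.3% and 94.6%.

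Osbpl1a, which encodes a sterol sensor of late endosomes, had the largest number of passing trios, 45, and the shallowest coverage among the 8 genes, with medians of 139 and 97 reads. Its trio closest to the 5-point line was a 90-nt exon on chromosome 18, at 15.0% in control and 10.4% in ptbp1kd from 34 and 47 reads, and the interval of its difference ran from -24.4 to 11.7 points. A 163-nt exon of Osbpl1a was measured in several trios, and changed by 4.4 points in one and by -3.7 in another. The 13 trios of Osbp, the founding member of the family, were the deepest, with median reads of 1624 and 1591, and its PSI values were above 95 throughout and differed by at most 0.9 points.

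Expression was read in 3 ways, since they did not give the same ratios for these genes. The first sums depth times length over the RefSeq isoforms of a gene, scaled to the library total; the others add the isoforms that Cufflinks assembled, or use the reads on the gene's splice junctions scaled to the junction total. The median log2 ratio of all genes tested was 0.0854, 0.117 and 0.169 by these measures. By the first, 24.4% of 12136 genes were higher and 13.7% lower by 1.5-fold or more in ptbp1kd. With assembled isoforms these shares were 19.5% and 4.19%, and for junction reads they were 18% and 1.48%. Of the 8 genes expressed here, 2 were higher and 1 was lower by 1.5-fold on RefSeq isoforms, and 0 passed 1.5-fold in either direction on assembled isoforms or on junction reads.

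Osbpl6 was the gene with the most even increase. Its RefSeq isoform had a depth of 71.2 in control and 90.1 in ptbp1kd, a log2 ratio of 0.63 with Cufflinks bounds of 0.48 to 0.79. The ratio was 0.55 over all isoforms and 0.57 on 4524 and 5278 junction reads, and it was 0.55, 0.43 and 0.41 relative to the median gene. Osbpl2 had a RefSeq depth of 80.3 and 213 and a log2 ratio of 1.70, but an assembled isoform with a depth of 123 in control had no counterpart in ptbp1kd, and over all isoforms the ratio was 0.34. On 3187 and 3708 junction reads it was 0.57. Osbp, at depths of 429 and 401, had log2 ratios of 0.20, 0.20 and 0.37 by the 3 measures.

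The genes for the partners Osbpl9 and Osbpl11 were lower in ptbp1kd by each measure, and most on RefSeq isoforms. Osbpl11 had a RefSeq depth of 154 in control and 84.5 in ptbp1kd and log2 ratios of -0.57, -0.25 and -0.20. Its assembled isoform in ptbp1kd, at a depth of 22, had 13 exons, as the RefSeq isoform did, and was shorter, at 4364 against 4521 bases. Osbpl9 had RefSeq depths of 69.9 and 39.2 and log2 ratios of -0.48, -0.17 and -0.11. Osbpl8 was near even, with ratios of -0.13, -0.13 and -0.07 and bounds of -0.29 to 0.05 that include 0.

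Col4a3bp had log2 ratios of 0.13, 0.03 and 0.02, and relative to the median gene they were 0.04, -0.09 and -0.15, so that the sign turned for all isoforms and junction reads and not for RefSeq isoforms. The change in its 78-nt exon thus came with a total that was close to even. Osbpl1a gave no stable direction, with -0.66 on its RefSeq isoform (depths of 37.3 and 19.9), 0.42 over all isoforms and -0.12 on 1942 and 1404 junction reads. Osbpl3, which encodes a relative linked to cell adhesion, had depths of 0.0442 and 0.133 and 1 and 6 junction reads, under the minimum of 20 reads, and no ratio is given for it. In order of RefSeq depth per base in control, Osbp (429) and Osbpl8 (288) stood above Col4a3bp (250), Osbpl11 (154), Osbpl2 (80.3), Osbpl6 (71.2), Osbpl9 (69.9), Osbpl1a (37.3) and Osbpl3. Over all isoforms the order in control was Osbp (429), Col4a3bp (300), Osbpl8 (288), Osbpl9 (224), Osbpl2 (204), Osbpl11 (154), Osbpl6 (150), Osbpl1a (91.4) and Osbpl3. With 1 library, whether neighbours in either order differ could not be tested.

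Shares of isoform depth moved by 10 points or more in 4 further genes, in which the assembled isoforms also differed between the libraries; the cause was not tested. The RefSeq isoform of Osbpl2 held 39.4% of the depth of its gene in control and 100% in ptbp1kd, that of Osbpl11 100% and 79.3%, and that of Osbpl1a 40.8% and 23.7%. In Osbpl9 the RefSeq isoform that starts at a later first exon and lacks the 39-nt exon held 20% in control and was listed at 0 in ptbp1kd. SpliceTrap showed no change of 5 points in any trio of Osbpl2, Osbpl11 or Osbpl1a. The PSI of a middle exon does not measure where a transcript starts or ends. These trios therefore cannot tell whether isoforms that differ there changed in share.

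**Figure D4:**
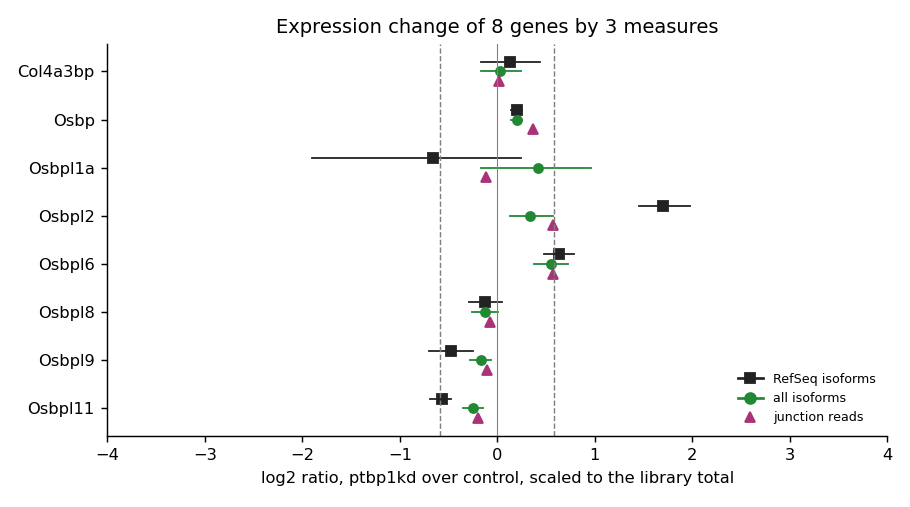
Log2 ratio of expression, ptbp1kd over control and scaled to the library total, for the 8 genes with at least 20 reads; black squares are RefSeq isoforms and green circles all isoforms, each with the outermost Cufflinks bounds, purple triangles are junction reads, and dashed lines mark 1.5-fold. The measures lie close together for Col4a3bp, Osbp, Osbpl6 and Osbpl8, and apart for Osbpl2 (1.70 against 0.34 and 0.57) and Osbpl1a (-0.66 against 0.42 and -0.12).

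The genes that work beside these transfer proteins were read from a list of 53. It held relatives, endoplasmic reticulum anchors, phosphoinositide handling genes, sphingolipid enzymes, regulators of ceramide transfer, START carriers, and sterol-regulated genes and sterol carriers. Of 44 with enough reads, 9 were higher and 4 were lower by 1.5-fold on RefSeq isoforms, where 24.4% and 13.7% of all genes were, with a median log2 ratio of 0.01 against 0.0854 for all genes. On all isoforms these counts were 4 and 1, beside 19.5% and 4.19% of all genes, and on junction reads 5 and 0, beside 18% and 1.48%. The list as a whole thus did not stand above these shares on RefSeq isoforms. The genes past 1.5-fold in the same direction by every measure were 3. Osbpl5, another oxysterol-binding protein relative, had log2 ratios of 0.80, 0.97 and 1.10. Abca1, the cholesterol exporter of the plasma membrane, had 1.60, 1.28 and 1.43, at RefSeq depths of only 6.2 and 15.5. Sgms2, a sphingomyelin synthase, had its RefSeq isoform listed at 0 in control and at a depth of 7.26 in ptbp1kd, so its RefSeq ratio has no finite value. Its depth over all isoforms was 22.7 and 31.4, a log2 ratio of 0.75 with bounds of -0.05 to 1.45 that include 0. On 83 and 121 junction reads the ratio was 0.90.

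For other genes of the list past 1.5-fold on RefSeq isoforms, the ratio there is given first and the one over all isoforms second. Pitpnm1, which encodes a phosphatidylinositol transfer protein, had 0.62 by both. Among carriers, Pctp, the phosphatidylcholine transfer protein gene, had 1.68 and 0.49, Stard10 had 0.64 and 0.54, and Stard3 had -0.62 and -0.26. Among sphingolipid enzymes, Cers6 had 1.49 and 0.07, Sptlc2 had 0.63 and 0.29, and Asah2 was listed at 0 on its RefSeq isoform in ptbp1kd and had 0.21 over all isoforms. Csnk1g1, a casein kinase gene, had 1.00 and 0.09. The VAP anchors Vapa and Vapb, which hold the transfer proteins at the endoplasmic reticulum, had RefSeq ratios of -0.21 and -0.04, and Hmgcs1 was listed at 0 in both libraries.

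The labels were checked on Ptbp1 itself and on markers. RefSeq isoforms of Ptbp1 had a depth of 2710 in control and 716 in ptbp1kd, a log2 ratio of -1.73, and its paralog Ptbp2 had 268 and 375, a ratio of 0.78. Among neuronal and neuroblastoma markers, Tubb3, Stmn2 and Hand2 were at depths of 594 to 4146 in the libraries, Map2 at 291 and 231, Gata3 at 41.3 and 12.7 on RefSeq isoforms but at 48.2 and 86.5 over all isoforms, and the neurofilament genes Nefl and Nefm at most at 0.531. Among markers of glia, fibroblasts, pericytes, blood and endothelium, Mbp was at 4.93 and 0, Pecam1 at 2.49 and 7.36, Aqp4 at 0 in both and Ptprc at 0 and 0.0357. Their part in the values above was not tested. The libraries held 74382387 and 58295142 reads on 406367 distinct junctions.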

How the data were processed

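RNA from 2 N2A cultures was sequenced as strand-specific 100-base paired-end libraries, and the authors ran SpliceTrap, TopHat and Cufflinks on mm9 (versions not given in the sources used here). Per trio, the deposited SpliceTrap tables give an inclusion fraction before and after model correction, counts of junction reads, and a coverage signal from which trio reads were computed. The deposited Cufflinks tables give coverage signal and FPKM with bounds per isoform, with the annotated transcripts extended by assembly. Annotated isoforms were matched to symbols through RefSeq, and an assembled isoform was given to the gene of its locus or, where a locus held several, to the one sharing most introns. Exons were annotated from GENCODE vM1, and the sequence was read from NCBIM37.

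The members and gene lists were chosen with earlier results of these data known. Named exons were those of the 9 genes with a change of 5 points or more and at least 20 reads in each library, and listed genes were named past 1.5-fold. A junction PSI is the mean of both inclusion junctions (rounded for intervals) over itself plus the skipping junction. PCR copies are not independent molecules, so Wilson and Newcombe intervals cover counting error only. The interval code was tested on simulated data. Expression summed over assembled isoforms and from junction reads (the largest deposited count of each junction, within 1 gene) was added after seeing the data, because assembled isoforms differed between the libraries. Junction PSI from the largest count of each junction was also added then. Of the 53 listed genes, 7 had too few reads on RefSeq isoforms and 2 could not be matched; single values of some genes on the lists are not reported here. Python 3.11 with NumPy and pandas was used.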

Additional observations from a re-analysis of the deposited data

How the results depend on the processing

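No paired analysis was possible because each condition has 1 library, and for the same reason no replicate could be left out. The change in PSI of each of the named exons kept its direction before correction, from junction reads in any form and, for the Osbpl6 exon alone, which has more than 1 passing trio, averaged over trios. With the largest listed count of each junction, chosen after seeing the data, it was 29.4 points for Col4a3bp, 9.1 for Osbpl8, 0.2 for Osbpl6, and -13.2 and 36.7 for the Osbpl9 exons, which for the 39-nt exon compares with -29.7 by SpliceTrap. The count of 5 member trios became 3 with a minimum of 50 reads, which leaves out both Osbpl9 trios, and 3 with a threshold of 10 points. The count over all trios, 7853, was 3950 at 10 points and 2428 in the cassette class alone. Expression depended far more on the measure. Osbpl1a reversed to 0.42 over all isoforms. The 13 listed genes past 1.5-fold were 9 higher and 4 lower; with the median gene at 0 they were 6 and 7. They became 2 with FPKM over the library median and a pseudocount of 1, 5 over all isoforms, 5 on junction reads and 7 at 2-fold. The 4632 genes past 1.5-fold, 2966 higher and 1666 lower, became 1124 (491 higher) and 3007 (1566 higher) with FPKM and pseudocounts of 1 and 0.1, 2876 (2368 higher) over all isoforms, 1975 (1825 higher) on junction reads, 7108 with no minimum and 2851 at 2-fold. A pseudocount shrinks the ratios of low genes; the cause of the other shifts was not tested.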
